A study of Arabidopsis thaliana with 12 samples.

Results

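Leaves of the pad4 mutant were compared with wild type leaves, both given 2'cADPR, across all genes measured by mRNA sequencing. The 6 libraries chosen were the 3 labelled pad4 and the 3 labelled wild type that had received 2'cADPR, of 12 libraries in the series. The other 6 were 3 pad4 and 3 wild type libraries given water as the mock treatment, and they enter below only as the same genotype comparison without 2'cADPR. All libraries were made from total RNA of Arabidopsis thaliana rosette leaves. The pad4 plants carried a knockout of PAD4, of an allele the sources used here do not give. Nor do they give dose, time after treatment, plant age or plants per library. The wild type plants were Col-0, the standard laboratory accession. The labels do not say that replicates were separate plants, so each p-value rests on a spread between libraries that may be technical. The study asked whether the effect of 2'cADPR depends on the EDS1-PAD4-ADR1 pathway.

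2'cADPR is a cyclic form of ADP-ribose that enzymes with a TIR domain make from NAD+. Plants use TIR domains in intracellular immune receptors, and small nucleotides made by these domains bind complexes of the lipase-like protein EDS1 with its partners PAD4 or SAG101. The EDS1-PAD4 complex then engages the helper receptor ADR1, and the EDS1-SAG101 complex engages NRG1. In leaves, the PAD4 branch is known for driving salicylic acid synthesis, transcription of defence genes and systemic acquired resistance, and leaves with active immunity commonly express fewer genes for photosynthesis and growth.

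PAD4 (AT3G52430; TAIR10 chromosome 3, 19431095 to 19434450, plus strand), the gene knocked out, was read first as a check of the labels. It had 134, 114 and 206 counts in the 3 pad4 libraries given 2'cADPR, against 22968, 25379 and 21372 counts in the 3 wild type libraries. In CPM, the usual unit that scales counts to each library's adjusted total, these were 3.02, 2.52 and 4.796 CPM in pad4 and 548, 589.6 and 518 CPM in wild type. Every pad4 library was far below every wild type library, and the mean in pad4 was 0.624% of that in wild type (log2 difference -7.33 ± 0.23 SE, adjusted p = 1.21e-12). The test here and below was edgeR's quasi-likelihood test over all 4 groups, with Benjamini-Hochberg adjustment over all genes tested and a threshold of 0.05. A log2 difference is pad4 minus wild type, so a negative value means lower in pad4. Each SE is the absolute log2 difference divided by the square root of that test's F statistic. It is approximate, and may be too small for genes with few counts in a group.

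The 6 libraries given 2'cADPR held 41796309 to 44436989 counts each. Libraries of 1 group ranked genes alike, with Spearman correlations of at least 0.9927 in the treated groups, against 0.8238 to 0.8406 for a treated pad4 library paired with a treated wild type one. The first principal component of these 6 libraries carried 91.13% of the variance and separated the genotypes, with scores of 119.5 to 123.9 in pad4 and -125.1 to -113.7 in wild type. Each library lay with its own group. The third wild type library lay somewhat nearer to pad4, at -113.7 against -125.1 and -125 in the other wild type libraries. Nuclear photosystem and light-harvesting genes, which mark green leaf tissue, summed to between 78760 and 85230 CPM in pad4 and between 51340 and 58710 CPM in wild type. Markers of flower, seed and root cells were near absent: of 5 such genes in the table, 2 passed the filter on low counts. All 5 together summed to 3.23 to 4.51 CPM in pad4 and 1.96 to 4.01 CPM in wild type.

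Most of the leaf transcriptome differed between the genotypes after 2'cADPR. Of 19652 genes tested, 14577 were called (74.2%). In pad4, 7232 of these were lower (36.8% of those tested) and 7345 were higher (37.4%). The shift was large as well as broad: 3633 genes were lower by at least 2-fold (18.5%) and 4162 were higher by at least 2-fold (21.2%). Under upper-quartile scaling the split was less even, with 5866 lower and 8925 higher, of which 3034 and 5083 by at least 2-fold. The steepest differences were mostly losses, since 439 genes were at least 32-fold lower in pad4 and 154 were at least 32-fold higher. With so many genes called in either direction, a call on 1 gene or a handful says little by itself, and each group of genes below is to be read against 36.8% lower, 37.4% higher and a median log2 difference of 0.02 over all genes tested. Scaling by upper quartiles in place of trimmed means (TMM) moved the median of all genes by 0.22, so small differences depend on the scaling while those named below are mostly many times that size. The shares of 36.8% and 37.4% are those under TMM scaling. The gene lists were chosen with earlier results of these data known, so distance from these shares may in part reflect that choice. In bulk tissue such as this, fewer cells of a type and less RNA per cell cannot be told apart.

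Genes lower in pad4 took up much of the treated wild type transcriptome. Genes at least 2-fold lower in pad4 held 7.92% to 8.26% of all counts in the pad4 libraries and 34.1% to 36.55% in the wild type libraries. Genes at least 2-fold higher in pad4 held 30.6% to 31.2% of the counts in pad4 and 9.18% to 10.1% in wild type. Among the 838 genes over 256 CPM in the higher of the 2 groups, 33.7% were at least 2-fold lower and 24.7% at least 2-fold higher, whereas among the 2369 genes between 1 and 4 CPM the shares were 18.4% lower and 30.9% higher. The 5 chromosomes had similar shares, with 17.9% to 19.3% of their genes at least 2-fold lower and 21.1% to 22.05% at least 2-fold higher. Of 557 long noncoding genes tested, 88 were lower and 143 higher in pad4.

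**Figure D1:**
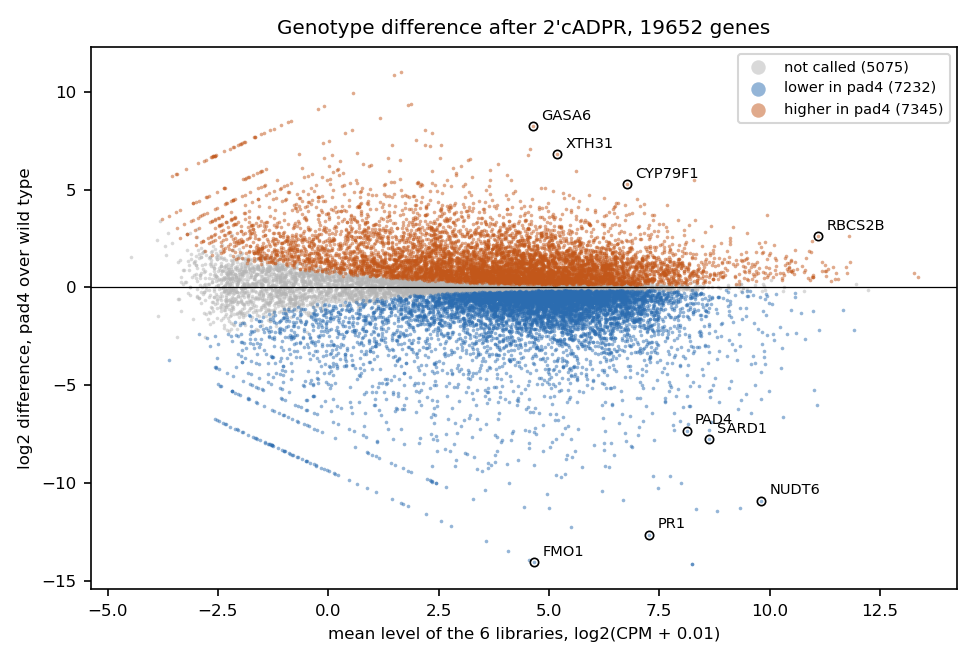
Log2 difference of pad4 minus wild type after 2'cADPR (vertical axis) against the mean level of each of the 19652 genes tested, in log2(CPM + 0.01) (horizontal axis); colours mark the 7232 genes called lower, the 7345 called higher and those not called. FMO1, PR1, NUDT6, SARD1 and PAD4 lie far below 0, and GASA6, XTH31, CYP79F1 and RBCS2B lie above it.

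The 12 largest falls, ranked by fitted log2 difference, included several of the best known defence outputs. For a gene without a count in a group the fitted value depends on a small count added by the model. ARD3 (AT2G26400), an acireductone dioxygenase of the methionine salvage cycle, stood at 0, 0.0884 and 0 CPM in pad4 and 681, 598 and 534 CPM in wild type, which was 4 counts over all 3 pad4 libraries. Its fitted log2 difference was -14.15, and -17.62 without the second pad4 library. FMO1 (AT1G19250) and ALD1 (AT2G13810) make N-hydroxypipecolic acid and its precursor, the mobile signal of systemic acquired resistance. Neither had a single count in the treated pad4 libraries, while wild type held 49.99, 52.4 and 49.3 CPM of FMO1 and 47.1, 50.7 and 42.7 CPM of ALD1. Taking a floor of 3 counts over the pad4 group, FMO1 was at least 2233-fold lower and ALD1 at least 2069-fold lower in pad4. PR1 (AT2G14610), the secreted protein most used as a marker of salicylic acid signalling, was at 0, 0.0884 and 0.0466 CPM in pad4 and 337, 333 and 251 CPM in wild type (log2 difference -12.64 ± 1.24 SE, adjusted p = 2.03e-07, and -13.53 without the second pad4 library). In all 4 genes the lowest wild type library was above the highest pad4 library, which was a condition for choosing the 12 falls and the 12 rises.

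CHX17, a cation/proton exchanger, WRKY59, CML43, a calmodulin-like protein, and scpl14, a serine carboxypeptidase-like protein, were also without a count in treated pad4. Against the same floor they were at least 608.6-fold, 517.5-fold, 309-fold and 284.3-fold lower. Their rank among the largest falls rests on the fitted values and not on these floors. WRKY62, a transcription factor gene, had 3 counts over the pad4 libraries and 8019 over the wild type libraries, a ratio of wild type over pad4 of 2807 (95% interval of counting error 960 to 1.361e+04). All 5 were thus absent or close to absent in the mutant. UGT76B1, which attaches glucose to salicylic acid and N-hydroxypipecolic acid, stood at 0.226, 0.354 and 0.396 CPM in pad4 and 856, 978 and 862 CPM in wild type (log2 difference -11.42 ± 0.39 SE, adjusted p = 1.84e-12). AIG1, a GTP-binding protein gene named for its induction by a bacterial effector, was at 0.474, 0.951 and 0.0931 CPM in pad4 and 1438, 1355 and 1064 CPM in wild type (log2 difference -11.29 ± 0.43 SE, adjusted p = 5.03e-12, and -12.12 without the second pad4 library). NUDT6, a nudix hydrolase, was one of the most abundant of this group in wild type, at 1730, 1917 and 1706 CPM, and was at 0.744, 1.525 and 0.489 CPM in pad4 (log2 difference -10.91 ± 0.31 SE, adjusted p = 4.67e-13). Altogether 36 genes had no count in treated pad4 and at least 1 CPM on average in treated wild type, and 7 genes had the opposite pattern.

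The 12 largest rises were of genes that had almost no transcripts in treated wild type leaves. CSLA01, a cellulose synthase-like gene, was at 6.68, 5.22 and 6.91 CPM in pad4 and had no count in wild type. It was thus at least 263.8-fold higher in pad4, and its rank among the rises rests on the fitted value. TPS03, a terpene synthase, had 916 counts in pad4 and 1 count in wild type, a ratio of pad4 over wild type of 872.4 (95% interval of counting error 156.2 to 3.449e+04). GASA6, a gibberellin-regulated peptide gene, was at 31.2, 53.9 and 63.2 CPM in pad4 and 0.334, 0.0465 and 0.0969 CPM in wild type (log2 difference 8.26 ± 0.41 SE, adjusted p = 7.94e-11, and 9.37 without the first wild type library). XTH31, an enzyme gene that acts on xyloglucan in cell walls, was at 85.7, 62.7 and 68.3 CPM in pad4 and 0.6445, 0.465 and 0.824 CPM in wild type (log2 difference 6.81 ± 0.20 SE, adjusted p = 5.92e-13).

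The other genes among the 12 largest rises had differences between 6.52 and 7.89. They were MYB47 (7.89), the auxin-signalling repressor IAA29 (7.52, and 11.36 without the third wild type library), SOFL2 (7.29), the homocysteine methyltransferase gene HMT3 (7.21, and 7.99 without the first wild type library), the myrosinase-binding protein gene MBP1 (6.78), the transcription factor gene BZIP34 (6.64), the ammonium transporter gene AMT1;2 (6.64) and the homeobox gene HAT1 (6.52, and 7.91 without the third wild type library). MBP1 was the most abundant of these in pad4, at 42.1, 59.8 and 35.2 CPM, against 0.501, 0.2555 and 0.4845 CPM in wild type (log2 difference 6.78 ± 0.34 SE, adjusted p = 7.36e-11). Where 1 wild type library decides the size, that library held most of the few counts seen in wild type.

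The stretch before the start of genes with the largest differences is shown because many defence genes carry W boxes, the TTGAC core that WRKY factors bind. Each line gives 250 bases before the annotated start, 5′ to 3′ on the gene's own strand, from the TAIR10 genome with RefSeq gene starts. For ARD3 and WRKY62, both lower in pad4, capitals mark TTGAC on either strand.
ARD3, chr2:11233389-11233638, minus strand: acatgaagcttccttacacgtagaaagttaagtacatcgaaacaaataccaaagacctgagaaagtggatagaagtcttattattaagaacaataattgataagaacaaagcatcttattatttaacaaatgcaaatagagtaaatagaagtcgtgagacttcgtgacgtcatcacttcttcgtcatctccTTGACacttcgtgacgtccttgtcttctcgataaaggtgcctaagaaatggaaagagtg
WRKY62, chr5:352096-352345, minus strand: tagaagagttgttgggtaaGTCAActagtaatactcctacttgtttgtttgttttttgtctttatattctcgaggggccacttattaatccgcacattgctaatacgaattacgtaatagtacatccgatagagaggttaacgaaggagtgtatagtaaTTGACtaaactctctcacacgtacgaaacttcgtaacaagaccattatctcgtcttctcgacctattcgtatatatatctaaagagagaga
For TPS03, higher in pad4, capitals mark TTGAC and another of the motifs searched, AAATATCT, directly after it.
TPS03, chr4:9407361-9407610, plus strand: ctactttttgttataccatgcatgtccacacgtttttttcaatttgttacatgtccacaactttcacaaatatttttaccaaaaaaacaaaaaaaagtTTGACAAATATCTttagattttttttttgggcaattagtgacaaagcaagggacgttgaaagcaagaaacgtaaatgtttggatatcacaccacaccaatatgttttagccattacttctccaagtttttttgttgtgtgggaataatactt
These 3 were chosen for holding a motif, so the shares over all genes are the measure. In windows of 300 bases, 250 before and 50 after the start, TTGAC on either strand was present in 50.9% of the 19574 windows of tested genes. It was present in 63.3% of genes at least 2-fold lower in pad4 and in 70.2% of those at least 8-fold lower, against 44.3% and 42% of those higher by the same folds, and 48.6% of genes not called. At least 2 copies were present in 18.3% of all windows, 29.5% of those at least 2-fold lower and 38.4% of those at least 8-fold lower. TGACG, the core bound by TGA factors, which overlaps TTGAC wherever TTGACG is written, was in 23.8% of all windows, 30.3% of those at least 8-fold lower and 16.5% of those at least 8-fold higher. TGGGCC, found before many housekeeping genes, was in 19% of all windows and in 9.18% and 8.7% of those at least 8-fold lower and higher. Each other motif was searched on both strands in the same way. GAAATTT stood in 14.6% of all windows, in 16.1% and 16.9% of those at least 2-fold and at least 8-fold lower, and in 13.5% and 12.5% of those higher by the same folds. For CACGTG, the G box, the share was 8.62% of all windows, 8.06% and 5.76% of those lower, and 9.21% and 8.7% of those higher. For AAATATCT, the evening element, it was 6% of all windows, 5.81% and 5.66% of those lower, and 6.66% and 6.85% of those higher. A match is a description of the letters and not a site shown to be bound.

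The EDS1 module itself was lower in pad4. All 9 tested genes of the EDS1 complexes and their helper receptors were called lower, with log2 differences from -7.33 in PAD4 to -0.56 and a median of -3.34. PAD4 is 1 of these 9, and its low level in the mutant was set by the knockout. AT3G48080, a close relative of EDS1 with which it may share reads, stood at 1.31, 1.39 and 3.445 CPM in pad4 and 59.6, 64.3 and 60.98 CPM in wild type (log2 difference -4.92 ± 0.40 SE, adjusted p = 2.43e-08, and -5.51 without the third pad4 library). The genes of this module together had 171 to 191 CPM in pad4 and 2125 to 2342 CPM in wild type, sums that include PAD4. Of the 9 genes, 8 were at least 2-fold lower, so the fall was not of PAD4 alone.

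Receptor genes followed in the same direction. Among 23 genes with a TIR domain, 20 were lower and 2 higher in pad4 (median -1.56), and among 12 coiled-coil receptors and their partners 11 were lower and 1 higher (median -0.98). The TIR-NBS gene AT1G66090 was at 4.29, 4.09 and 2.07 CPM in pad4 and 131, 128 and 78.1 CPM in wild type (log2 difference -5.005 ± 0.27 SE, adjusted p = 1.65e-10). AT1G72900, a TIR-domain gene, was at 9.61, 7.52 and 8.82 CPM in pad4 and 211, 194 and 205 CPM in wild type (log2 difference -4.56 ± 0.13 SE, adjusted p = 4.18e-13). Higher in pad4 was AT1G47370, a TIR-domain gene of low level, at 6.25, 3.76 and 5.03 CPM in pad4 and 1.34, 0.627 and 2.11 CPM in wild type (log2 difference 1.89 ± 0.32 SE, adjusted p = 7.22e-05). Of the coiled-coil type, AT1G50180 and RPS2, which guards the immune protein RIN4, differed by -2.68 and -2.56. SUMM2, a receptor that watches over a MAP kinase cascade, was higher by 1.09.

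**Figure D2:**
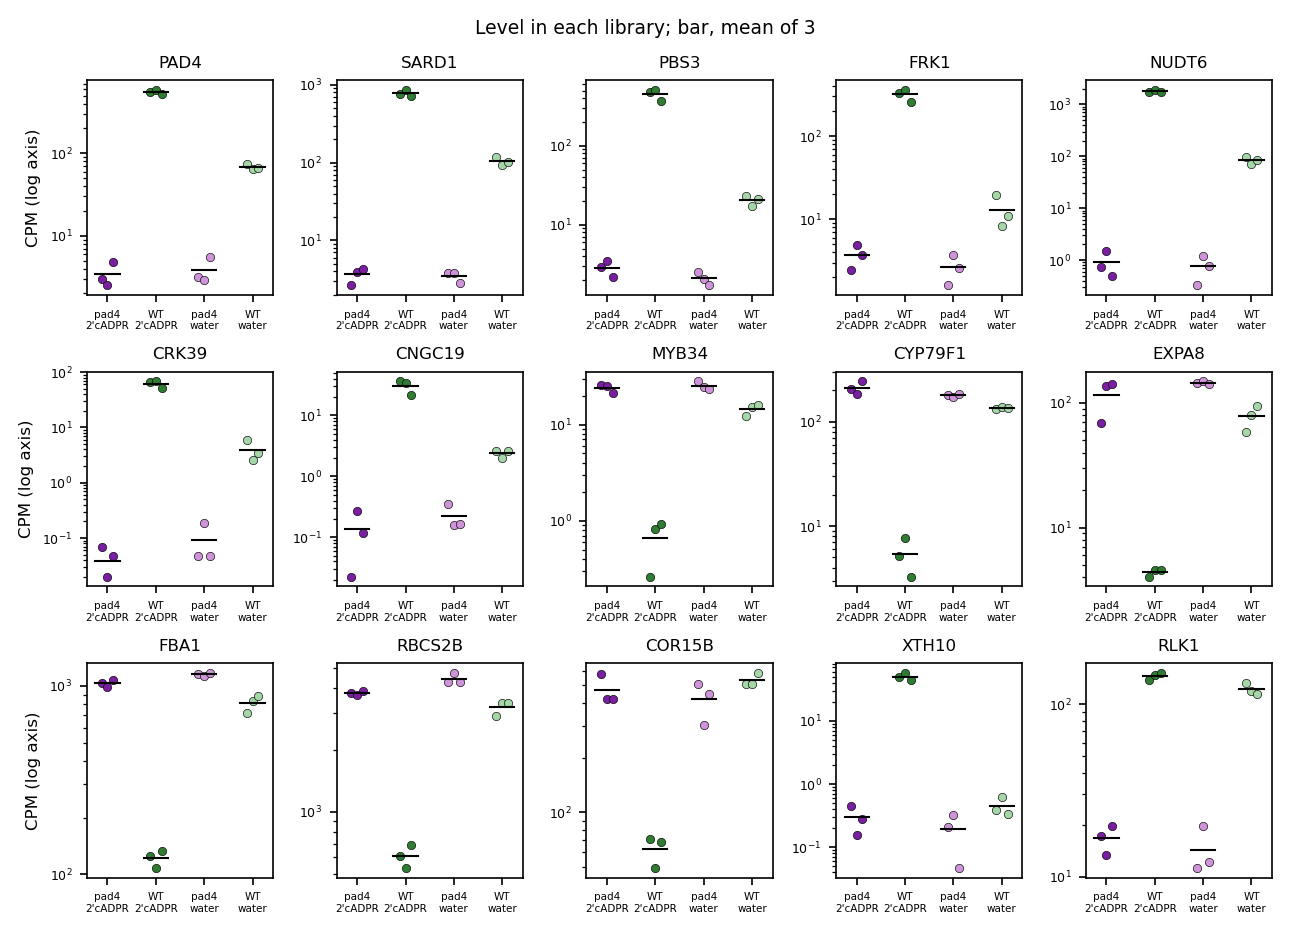
Level of 15 named genes in CPM on a log axis, with 1 point per library, a bar at each group's mean, and the groups in the order pad4 and wild type given 2'cADPR, then pad4 and wild type given water; 0 is drawn at 0.02 CPM. After 2'cADPR the pad4 points lie below the wild type points for PAD4 and the defence genes and above them for MYB34, CYP79F1, EXPA8, FBA1, RBCS2B and COR15B, with no overlap.

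Genes that make salicylic acid were mostly lower in pad4. Of 10 tested, 8 were lower and 2 higher (median -3.62). SARD1, a transcription factor gene that switches on isochorismate synthase, was at 2.66, 3.98 and 4.31 CPM in pad4 and 773, 867 and 722 CPM in wild type (log2 difference -7.75 ± 0.18 SE, adjusted p = 1.12e-13). PBS3, which joins isochorismate to glutamate on the way to salicylic acid, was at 2.91, 3.49 and 2.165 CPM in pad4 and 479, 511 and 372 CPM in wild type (log2 difference -7.31 ± 0.19 SE, adjusted p = 2.82e-13). ICS2, the minor isochorismate synthase, went the other way with 15.1, 13.2 and 12.97 CPM in pad4 and 3.796, 6.295 and 4.7 CPM in wild type (log2 difference 1.48 ± 0.20 SE, adjusted p = 6.33e-06). The pad4 libraries were thus nearly empty of SARD1 and PBS3 transcripts and held more of ICS2.

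In the list of salicylic acid perception and turnover, 13 of 16 genes were lower and 1 higher (median -1.996). NIMIN1, which binds the receptor NPR1, was at 0.0902, 0.3095 and 1.07 CPM in pad4 and 146, 161 and 149.8 CPM in wild type (log2 difference -8.29 ± 0.56 SE, adjusted p = 2.50e-09, and -9.54 without the third pad4 library). DLO1, a hydroxylase that turns over salicylic acid, was at 0.248, 0.199 and 0.396 CPM in pad4 and 59.1, 79.6 and 61.95 CPM in wild type (log2 difference -7.89 ± 0.47 SE, adjusted p = 6.50e-10). NIMIN3 had 7.94, 7.14 and 8.99 CPM in pad4 and 6.23, 6.55 and 7.195 CPM in wild type, the one named gene whose groups overlapped (log2 difference 0.27 ± 0.11 SE, adjusted p = 0.0465), and it missed the threshold under 10 of the alternatives tried. Among 17 genes of pathogenesis-related proteins and systemic acquired resistance, 14 were lower and 1 higher, with the lowest median of all lists, -5.28. The single one higher was DIR1, a lipid transfer protein of systemic acquired resistance, at 6.34, 7.69 and 7.71 CPM in pad4 and 4.61, 4.41 and 4.845 CPM in wild type (log2 difference 0.65 ± 0.16 SE, adjusted p = 0.00206). The list together summed to 724.7 to 977 CPM in pad4 and to 10510 to 10870 CPM in wild type.

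Genes that act as brakes on immunity were mostly lower in pad4. Of 17 negative regulators, 16 were lower and 1 higher in pad4 (median -2.18). The lowest was NUDT6 (above), followed by BAP2, a calcium-binding partner of BON1 that restrains cell death, at 0.158, 0.0884 and 0.0698 CPM in pad4 and 97.4, 84.7 and 63.9 CPM in wild type (log2 difference -9.56 ± 0.40 SE, adjusted p = 1.29e-11). CPR1, an F-box gene that limits receptor protein levels, was slightly higher in pad4 at 51.2, 46.4 and 51.05 CPM in pad4 and 43.8, 38.2 and 37.4 CPM in wild type (log2 difference 0.32 ± 0.08 SE, adjusted p = 0.00177).

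Genes of pattern-triggered immunity, the response to microbial molecules at the cell surface, were lower in 26 of 32 cases and higher in 2 (median -1.93). FRK1, a receptor-like kinase used as its reporter, was at 2.48, 4.97 and 3.77 CPM in pad4 and 334, 361 and 261 CPM in wild type (log2 difference -6.41 ± 0.33 SE, adjusted p = 1.23e-10). MPK11, a MAP kinase gene, was at 0.609, 0.752 and 1.02 CPM in pad4 and 72.9, 79.7 and 60.6 CPM in wild type (log2 difference -6.48 ± 0.22 SE, adjusted p = 1.89e-12). Both were well separated from wild type. DORN1, the receptor for extracellular ATP, was higher in pad4 at 12.7, 11.25 and 11.6 CPM in pad4 and 4.03, 5.62 and 4.14 CPM in wild type (log2 difference 1.36 ± 0.13 SE, adjusted p = 1.94e-07). The 44 tested WRKY genes counted 39 lower and 3 higher (median -2.64), and apart from WRKY59 and WRKY62 named above, WRKY23 was one of those higher, with 1.21. Cysteine-rich receptor-like kinases had 24 of 27 members lower and 1 higher (median -2.81). CRK39 was at 0.0677, 0 and 0.0466 CPM in pad4 and 65.55, 68.6 and 52.8 CPM in wild type (log2 difference -10.58 ± 0.42 SE, adjusted p = 7.99e-12, and -11.24 without the first pad4 library), CRK37 differed by -9.07 (-10.02 without the first pad4 library), and CRK41 was the one higher, by 0.39.

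Calcium and nucleotide genes were less uniform. Of 27 calcium channels, pumps and sensors, 16 were lower and 7 higher (median -1.54). The channel gene CNGC19 was at 0.0226, 0.265 and 0.116 CPM in pad4 and 36.4, 34.01 and 21.5 CPM in wild type (log2 difference -7.79 ± 0.37 SE, adjusted p = 4.43e-11, and -8.74 without the second pad4 library). ACA13, a calcium pump of the plasma membrane, was at 6.99, 9.79 and 5.47 CPM in pad4 and 576, 566 and 416 CPM in wild type (log2 difference -6.13 ± 0.20 SE, adjusted p = 1.63e-12). Higher was ANN4, an annexin, at 55.3, 41.9 and 41.4 CPM in pad4 and 7.38, 8.525 and 4.05 CPM in wild type (log2 difference 2.79 ± 0.22 SE, adjusted p = 1.67e-08). For NAD metabolism and ADP-ribosylation, 9 of 14 genes were lower and 3 higher (median -0.74), which included PARG2, an enzyme gene that removes poly(ADP-ribose), at 13.2, 11.3 and 10.8 CPM in pad4 and 239.8, 234 and 176 CPM in wild type (log2 difference -4.199 ± 0.18 SE, adjusted p = 2.16e-11). AO, which takes the first step from aspartate to NAD, differed by -2.32, and NADK1, an NAD kinase gene, by 0.64.

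Most genes for tryptophan-derived defence compounds were lower in pad4, while genes for methionine-derived ones were higher. In the camalexin and indole glucosinolate list, 14 of 20 genes were lower and 2 higher (median -1.40). PAD3, the last enzyme of camalexin synthesis, was at 0.474, 0.84 and 0.768 CPM in pad4 and 30.8, 39.6 and 44.3 CPM in wild type (log2 difference -5.78 ± 0.44 SE, adjusted p = 1.15e-08), and CYP71A12, an earlier enzyme of that route, differed by -4.87. MYB34, a regulator of indole glucosinolates, stood far higher in pad4, at 25.9, 25.1 and 21.3 CPM in pad4 and 0.263, 0.813 and 0.921 CPM in wild type (log2 difference 5.17 ± 0.24 SE, adjusted p = 3.31e-11). In contrast, each of the 15 genes of aliphatic glucosinolate synthesis was called higher in pad4 (median 3.75, lowest 0.94). CYP79F1, which takes chain-elongated methionine into the pathway, was at 208, 184 and 245 CPM in pad4 and 5.18, 7.76 and 3.27 CPM in wild type (log2 difference 5.29 ± 0.21 SE, adjusted p = 7.78e-12). BAT5, the plastid transporter of its keto acids, was at 45.9, 43.4 and 50.6 CPM in pad4 and 1.79, 2.997 and 1.33 CPM in wild type (log2 difference 4.51 ± 0.20 SE, adjusted p = 2.24e-11). Summed over the 15 genes, pad4 libraries held 1448 to 1733 CPM and wild type libraries 134.1 to 150.8 CPM, and no member was lower.

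Protein folding and export genes were lower in pad4, the endoplasmic reticulum ones almost without exception: 20 of 21 were lower and none was higher (median -2.25). BIP3, a lumenal chaperone gene that responds to unfolded protein, was at 1.71, 1.39 and 2.33 CPM in pad4 and 76.75, 97.5 and 88.2 CPM in wild type (log2 difference -5.59 ± 0.30 SE, adjusted p = 1.56e-10). PDIL1-2, a protein disulphide isomerase, was at 81.9, 69.3 and 67.3 CPM in pad4 and 737, 756 and 642 CPM in wild type (log2 difference -3.29 ± 0.12 SE, adjusted p = 4.57e-12). Together these 21 genes took 2853 to 3121 CPM in pad4 and 14880 to 16690 CPM in wild type. Of 12 genes of secretion at the plasma membrane, callose and plasmodesmata, 11 were lower and 1 higher (median -2.50). PDLP5, which closes plasmodesmata, differed by -5.32 and SYP122, a syntaxin, by -4.41. PDLP3, from the same family as PDLP5, went the other way, at 26.2, 29.5 and 29.8 CPM in pad4 and 0.382, 0.348 and 0.339 CPM in wild type (log2 difference 6.31 ± 0.16 SE, adjusted p = 2.19e-13).

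Stress chaperone and redox genes moved likewise. Of 19 glutathione transferase and redox genes, 16 were lower and 3 higher in pad4 (median -3.39). GRX480, a glutaredoxin gene induced by salicylic acid, was at 0.338, 0.221 and 0.466 CPM in pad4 and 52.5, 46.5 and 53.1 CPM in wild type (log2 difference -7.21 ± 0.36 SE, adjusted p = 8.54e-11). GSTU10 differed by -6.74 (-7.46 without the first pad4 library) and GSTU5 by 1.15. Heat shock factors and cytosolic chaperones counted 13 lower and 1 higher of 14 (median -1.96), with HSP90.1, a chaperone that folds receptors of the NLR type, at 20.03, 22.3 and 19.2 CPM in pad4 and 255, 306 and 235 CPM in wild type (log2 difference -3.69 ± 0.15 SE, adjusted p = 7.22e-12) and HSFB1 at -3.62 on the log2 scale. All 17 tested subunits of the 26S proteasome were lower, over a narrow range from -1.60 to -0.59. PAF1, an alpha subunit, was at 82.6, 82.2 and 81.3 CPM in pad4 and 258, 238 and 249 CPM in wild type (log2 difference -1.598 ± 0.06 SE, adjusted p = 4.59e-12), and the ATPase subunit RPT2A differed by -1.48. Proteasome genes thus moved as a block of modest size rather than through a few extreme members.

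**Figure D3:**
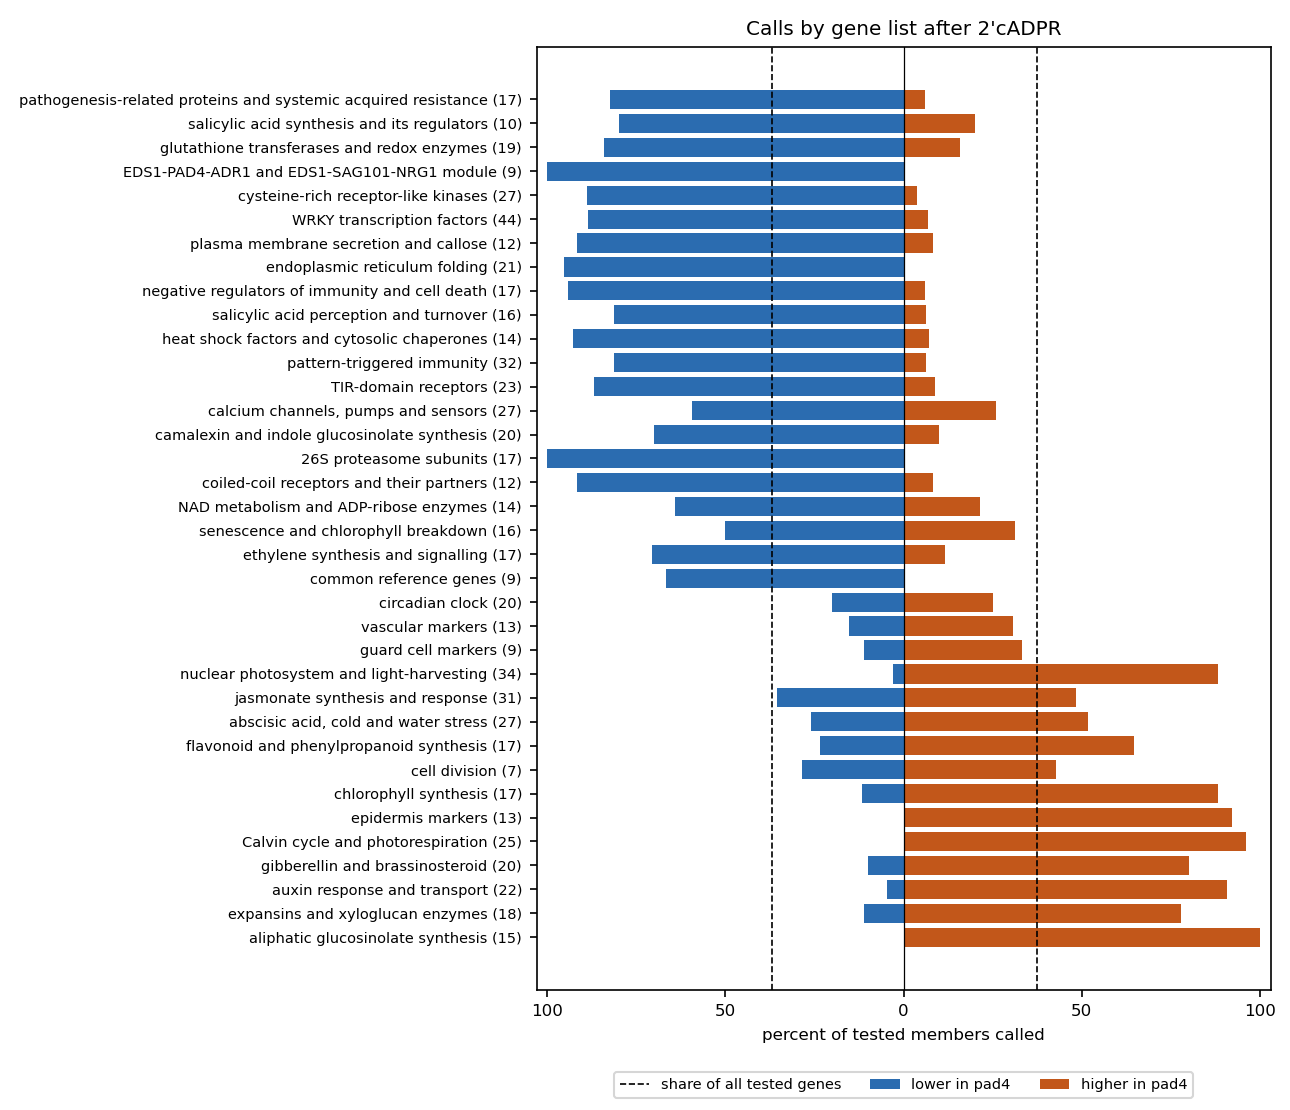
Share of the tested members of each gene list with at least 5 of them called lower (left of 0) and higher (right of 0) in pad4 after 2'cADPR, in percent, with the number tested in brackets after each name and lines at the shares over all 19652 genes, 36.8% and 37.4%. Immune, folding and proteasome lists lie on the lower side, and aliphatic glucosinolate, Calvin cycle, photosystem, auxin and growth lists on the higher side.

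Photosynthesis genes were higher in pad4. Among 34 nuclear genes of photosystems and light harvesting, 30 were higher and 1 lower (median 0.68). LHCB5, a minor antenna protein of photosystem II, was at 3331, 3144 and 3481 CPM in pad4 and 1305, 1239 and 1543 CPM in wild type (log2 difference 1.28 ± 0.11 SE, adjusted p = 6.06e-08). PSAN, a photosystem I subunit, differed by 1.31. LHCB1.4 was the one lower, by -0.49, and reads of the near-identical LHCB1 copies may be split between them. The differences were small beside those of defence genes, yet they concerned some of the most abundant transcripts of the leaf.

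The Calvin cycle and photorespiration list had 24 of 25 genes higher in pad4 and none lower (median 1.29). FBA1, a plastid aldolase, was at 1035, 989 and 1074 CPM in pad4 and 126, 108 and 134 CPM in wild type (log2 difference 3.08 ± 0.10 SE, adjusted p = 1.08e-12). RBCS2B, a small subunit of Rubisco whose reads may be shared with near-identical copies, was at 3786, 3673 and 3847 CPM in pad4 and 612, 532 and 691 CPM in wild type (log2 difference 2.62 ± 0.10 SE, adjusted p = 7.22e-12). In sum the list took 55250 to 59500 CPM in pad4 and 24790 to 27120 CPM in wild type. For chlorophyll synthesis, 15 of 17 genes were higher and 2 lower (median 1.11). CHLM and CHLI2, of the magnesium branch of the route, differed by 2.14 and 1.93, and GSA1, an early enzyme of the route, by -0.56. Counts from chloroplast-encoded genes were at most 0.033% of a treated library, and are not described.

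Senescence and chlorophyll breakdown genes were split, 8 lower and 5 higher of 16 (median -0.52). SAG21, a stress-induced gene, was at 5.23, 5.15 and 4.52 CPM in pad4 and 846, 736 and 766 CPM in wild type (log2 difference -7.299 ± 0.24 SE, adjusted p = 1.31e-12). NAP, a transcription factor gene that promotes leaf senescence, was at 1.22, 2.1 and 1.54 CPM in pad4 and 36.3, 51.25 and 48.55 CPM in wild type (log2 difference -4.805 ± 0.36 SE, adjusted p = 9.29e-09). CLH1, a chlorophyllase, was higher in pad4 at 301, 282 and 290.3 CPM in pad4 and 40.2, 36.1 and 41.8 CPM in wild type (log2 difference 2.89 ± 0.10 SE, adjusted p = 2.11e-12). The list has no single direction.

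Growth hormone and cell wall genes were higher in pad4. Auxin response and transport had 20 of 22 genes higher and 1 lower (median 2.31), led by IAA29 and HAT1 above, and the one lower was GH3.6, which conjugates auxin to amino acids (-1.93). Expansins and xyloglucan enzymes had 14 of 18 higher and 2 lower, with a median of 3.09 as fitted and of 2.81 when the member without counts in wild type is set to its bound. EXPA8, an expansin that loosens walls, was at 68.55, 137 and 143 CPM in pad4 and 4.06, 4.62 and 4.555 CPM in wild type (log2 difference 4.72 ± 0.26 SE, adjusted p = 2.47e-10). XTH10 was the exception in this family, at 0.451, 0.155 and 0.279 CPM in pad4 and 49.4, 57.7 and 43.75 CPM in wild type (log2 difference -7.402 ± 0.28 SE, adjusted p = 5.22e-12). Gibberellin and brassinosteroid genes were higher in 16 of 20 cases and lower in 2 (median 1.31). GA20OX1, which makes active gibberellin precursors, differed by 3.06, and GID1B, a gibberellin receptor, was lower at 5.53, 5.15 and 4.33 CPM in pad4 and 42.8, 44.3 and 40.1 CPM in wild type (log2 difference -3.08 ± 0.13 SE, adjusted p = 1.62e-11).

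Epidermis markers moved with these growth genes: 12 of 13 tested were higher in pad4 and none was lower (median 1.195). The 14 epidermis markers measured, tested or not, summed to 3570 to 4094 CPM in pad4 and 1554 to 1902 CPM in wild type. CER1, a gene of cuticular wax synthesis, stood at 81.4, 36.96 and 46.65 CPM in pad4 and 10.5, 17.2 and 11.6 CPM in wild type (log2 difference 2.07 ± 0.33 SE, adjusted p = 3.83e-05). CER2, of the same pathway, stood at 113, 125 and 112 CPM in pad4 and 25.5, 29.55 and 32.15 CPM in wild type (log2 difference 2.002 ± 0.13 SE, adjusted p = 1.39e-09). Of 15 markers listed 13 passed the filter, and CYP96A15 was near 0 in every library. The part of epidermal transcripts in the growth and wall differences was not tested. Guard cell markers had 3 higher and 1 lower of 9 (0 lower and 5 higher under upper-quartile scaling), with GORK, MYB60 and KAT1 at 1.701, 1.28 and -0.49. The 11 guard cell markers measured, tested or not, summed to 1338 to 2171 CPM in pad4 and 1666 to 2089 CPM in wild type. Vascular markers had 4 higher and 2 lower of 13 (0 lower and 8 higher under upper-quartile scaling), with HB-8, SEOR1 and APL at 1.202, 1.08 and -0.33, and they summed to 597.6 to 628.2 CPM in pad4 and 538.6 to 588.7 CPM in wild type. KAT1 and APL lost their calls under upper-quartile scaling.

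Flavonoid and phenylpropanoid genes were higher in 11 of 17 cases and lower in 4 (median 0.80). CHS, the entry enzyme of flavonoids, was at 8.955, 26.5 and 12.15 CPM in pad4 and 1.12, 0.836 and 0.533 CPM in wild type (log2 difference 4.25 ± 0.47 SE, adjusted p = 8.05e-07, and 3.66 without the second pad4 library). PAL2 and PAL1, which start the phenylpropanoid route, went opposite ways at 1.33 and -0.66. The second pad4 library was the highest for CHS, and the groups still did not overlap.

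Jasmonate and abscisic acid genes stood on both sides, and most ethylene genes were lower in pad4. The 31 jasmonate genes had 15 higher and 11 lower in pad4 (median 0.69). VSP2, a storage protein of the MYC branch, was at 57.6, 128 and 77.2 CPM in pad4 and 7.85, 16.5 and 9.16 CPM in wild type (log2 difference 2.96 ± 0.37 SE, adjusted p = 3.29e-06). JAZ9, a repressor gene, was at 204, 170.5 and 177 CPM in pad4 and 21.6, 27.2 and 27.5 CPM in wild type (log2 difference 2.85 ± 0.10 SE, adjusted p = 1.88e-12). TAT3, a tyrosine aminotransferase also used as a jasmonate marker, was at 17.05, 16.6 and 13.9 CPM in pad4 and 877, 1052 and 798 CPM in wild type (log2 difference -5.84 ± 0.22 SE, adjusted p = 5.11e-12). Markers used for jasmonate thus stood on both sides. Of 17 ethylene genes 12 were lower and 2 higher (median -0.36), or 9 lower and 2 higher with a median of -0.14 under upper-quartile scaling, among them the synthase ACS6 (-2.09) and the receptor EIN4 (-1.67). The 27 genes of abscisic acid, cold and water deficit had 14 higher and 7 lower (median 0.73). COR15B, a plastid protein of cold tolerance whose reads may be shared with COR15A, was at 579.5, 417 and 422 CPM in pad4 and 70.8, 49.2 and 68.1 CPM in wild type (log2 difference 2.92 ± 0.19 SE, adjusted p = 1.89e-09), and KIN1, which may share reads with KIN2, differed by 2.43. RD29B, an abscisic acid marker, was lower at 1.06, 0.243 and 0.931 CPM in pad4 and 6.71, 7.43 and 4.385 CPM in wild type (log2 difference -3.05 ± 0.42 SE, adjusted p = 8.84e-06).

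The 20 circadian clock genes had 5 higher and 4 lower, with a median of 0.007 whose sign changed under other scalings, so no direction is given. PRR3, RVE4 and TOC1 differed by 1.07, 0.92 and -0.36. The 7 cell division genes had 3 higher and 2 lower, with CDKA1 at -0.87. Of 9 genes often used for normalisation, 6 were lower in pad4 and none higher, with a median of -0.31, but upper-quartile scaling gave 3 lower and 2 higher. UBQ10, a polyubiquitin gene, was at 1211, 1232 and 1201 CPM in pad4 and 2809, 3047 and 2596 CPM in wild type (log2 difference -1.21 ± 0.08 SE, adjusted p = 1.94e-09). GAPC1, a cytosolic glycolytic enzyme, was at 456, 466 and 447 CPM in pad4 and 929, 1001 and 923 CPM in wild type (log2 difference -1.06 ± 0.07 SE, adjusted p = 1.75e-09). Both remained lower under every scaling tried.

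Part of the genotype difference was present without 2'cADPR. In the other 6 libraries, given water, 5744 genes were called between pad4 and wild type (29.2%), of which 3445 were lower (17.5%) and 2299 higher (11.7%) in pad4, or 2902 lower and 3547 higher under upper-quartile scaling. The median absolute log2 difference over all genes was 0.78 after 2'cADPR and 0.22 after water. The 2 comparisons use different libraries and share only the scaling and the spread estimate. Across genes, which are not independent replicates, their log2 differences correlated with a Pearson r of 0.7448 and had the same sign in 76.42% of genes. Of the genes lower after water, 92.54% were also lower after 2'cADPR, which was 44.08% of those lower after 2'cADPR. Of the genes higher after water, 89.04% were also higher after 2'cADPR, which was 27.87% of those higher after 2'cADPR. Of the 5235 genes called after both in 1 direction, 4993 had the larger difference after 2'cADPR.

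Whether the genotype difference itself depended on treatment was tested as the contrast after 2'cADPR minus that after water. This was called for 11326 genes (57.6%), more negative for 5539 (28.2%) and more positive for 5787 (29.4%), or 4447 and 6809 under upper-quartile scaling. It was called in the direction of the difference for 5380 of the 7232 genes lower in pad4 after 2'cADPR. The same held for 5649 of the 7345 genes higher in pad4 after 2'cADPR. These genes were selected by their difference after 2'cADPR, which is itself a term of the tested contrast. Their agreement in direction is thus in part built in, and these shares are not separate evidence of dependence on treatment. For PAD4 the difference after water was -4.15, smaller than that after 2'cADPR, with 3.14, 2.94 and 5.51 CPM in pad4 and 75.02, 63.9 and 66.8 CPM in wild type. The change in the contrast was -3.18 ± 0.29 SE, adjusted p = 3.60e-07.

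**Figure D4:**
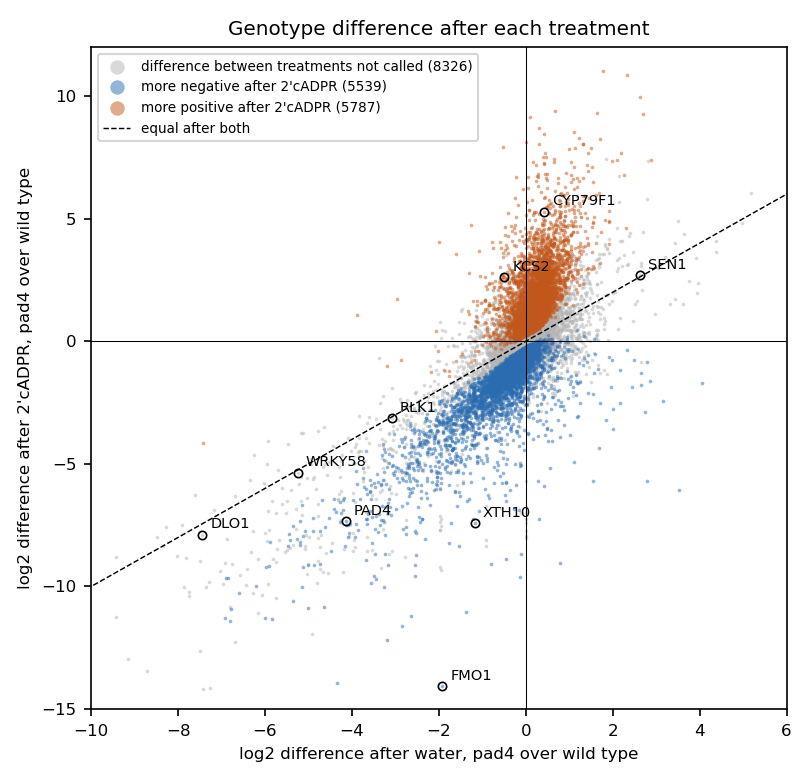
Log2 difference of pad4 minus wild type after 2'cADPR (vertical axis) against that after water (horizontal axis), 1 point per tested gene, with the diagonal of equal differences. The cloud is stretched along the vertical axis, with a median absolute difference of 0.78 after 2'cADPR and 0.22 after water, and WRKY58, RLK1 and SEN1 lie close to the diagonal.

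Immune lists already differed after water, with medians closer to 0. The EDS1 module had a median of -3.34 after 2'cADPR and -1.73 after water, where 8 of 9 genes were lower, PAD4 among them. Pathogenesis-related and systemic resistance genes had medians of -5.28 and -3.0, salicylic acid synthesis -3.62 and -1.41, WRKY genes -2.64 and -0.69, and endoplasmic reticulum folding -2.25 and -1.01. Wild type library 1 given water stood above the other 2 for some defence genes. PR1 was at 0.187, 0 and 0 CPM in pad4 and 31.1, 1.94 and 2.48 CPM in wild type after water, and ARD3 at 0, 0.02298 and 0.116 CPM in pad4 and 14.4, 3.43 and 5.07 CPM in wild type. PAD3 was at 0.609, 0.896 and 0.605 CPM in pad4 and 15, 4.65 and 4.495 CPM in wild type. For PR1 and ARD3 the change of the contrast with treatment was not called (adjusted p = 0.437 and 0.0954), and without that library it was (adjusted p = 0.00120 and 0.00153). Without wild type water library 2 the change was called for ARD3 too (adjusted p = 0.0466) but not for PR1 (0.375). Without library 3 it was called for neither. Without library 1 the median after water of pathogenesis-related and systemic resistance genes was -2.95, with 13 lower and 2 higher of 17.

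Several growth lists were also partly higher in pad4 after water, read against 11.7% of all genes called higher and a median of 0.002. Aliphatic glucosinolate genes had a median of 3.75 after 2'cADPR and 0.36 after water, where 9 of 15 were higher. Calvin cycle genes had medians of 1.29 and 0.18, with 10 of 25 higher after water and none lower. Auxin genes had medians of 2.31 and 0.39, with 9 of 22 higher after water, and gibberellin and brassinosteroid genes 1.31 and 0.36, with 9 of 20 higher. Expansins and xyloglucan enzymes had medians of 3.09 and 0.24, with 4 of 18 higher. Chlorophyll synthesis genes had medians of 1.11 and -0.01, with 2 of 17 higher and 1 lower after water. Of the 34 photosystem genes, 30 were higher after 2'cADPR, whereas after water none was called either way and the median was -0.01, or 4 were lower and none higher without wild type library 1 given water. The change of the contrast with treatment was itself called negative for 8 of 9 EDS1 module genes, PAD4 among them. It was also called negative for 7 of 10 genes for salicylic acid synthesis and 8 of 17 for pathogenesis-related and systemic resistance proteins. Of the WRKY genes 27 of 44 had a negative change, and of the folding genes 19 of 21. The change was called positive for all 15 aliphatic glucosinolate genes, 24 of 25 Calvin cycle genes and 30 of 34 photosystem genes. So it was for 19 of 22 auxin genes and 12 of 18 expansin and xyloglucan enzyme genes. Over all genes tested, this change was called negative for 28.2% and positive for 29.4% under TMM scaling.

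**Figure D5:**
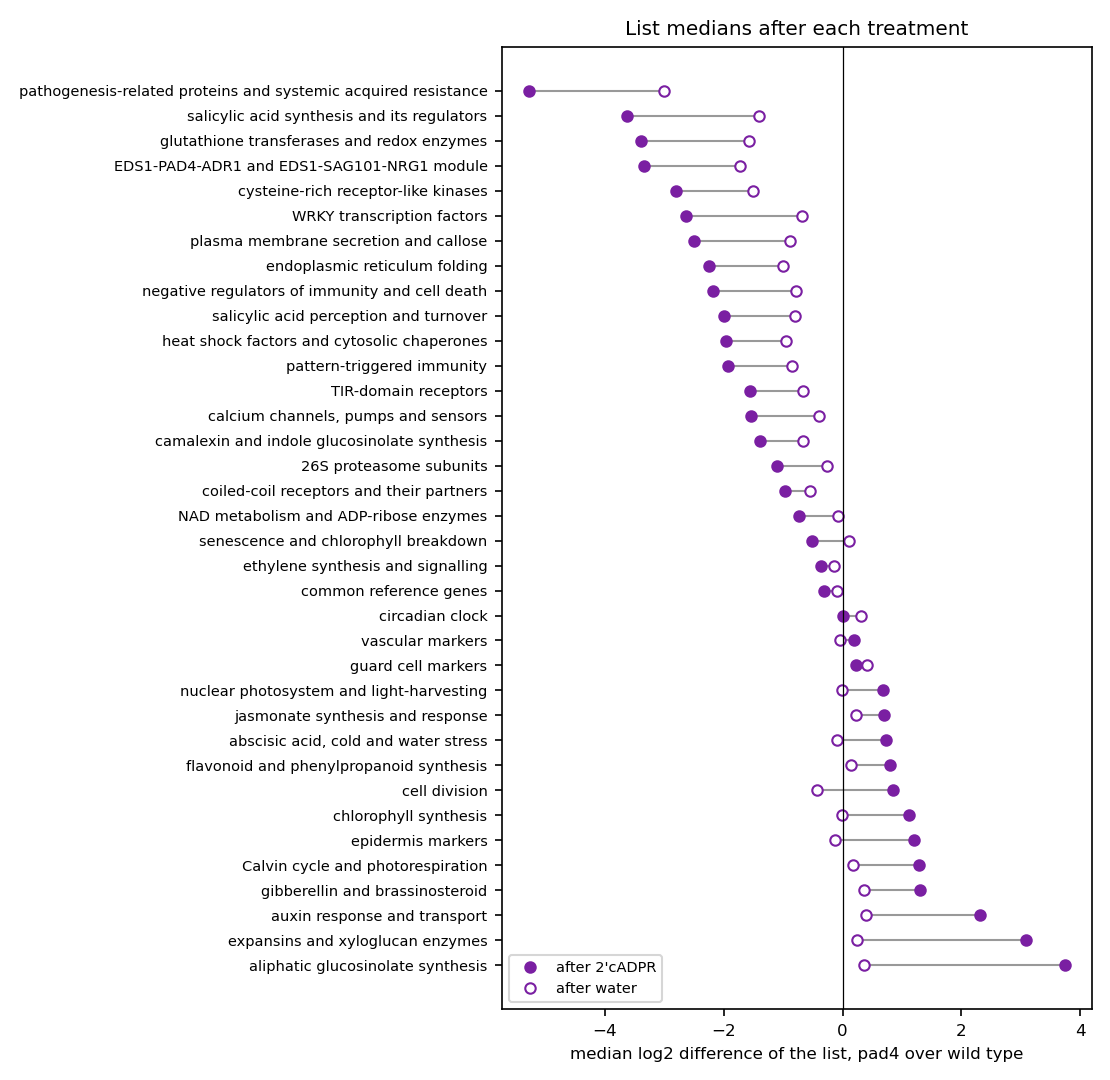
Median log2 difference of pad4 minus wild type for each gene list after 2'cADPR and after water, over the tested members. Immune lists are negative after both treatments and more so after 2'cADPR, while the medians of growth and photosynthesis lists lie closer to 0 after water than after 2'cADPR.

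A few genes, chosen for this likeness, differed by similar amounts with and without 2'cADPR. WRKY58 was at 0.496, 0.265 and 0.466 CPM in pad4 and 16.97, 17.42 and 16.2 CPM in wild type after 2'cADPR (log2 difference -5.36 ± 0.25 SE, adjusted p = 3.59e-11) and differed by -5.25 after water. The carboxypeptidase-like gene scpl16 differed by -4.995 after 2'cADPR and -4.95 after water, the receptor-like kinase genes CRK23 by -3.95 and -3.84 and RLK1 by -3.13 and -3.09, and the heat shock factor gene HSFA2 by -2.73 and -2.56. SEN1, a dark-induced and senescence-associated gene, was higher in pad4 by 2.69 after 2'cADPR and 2.63 after water. The 95% intervals of the change between treatments were wide for several of these: -1.215 to 1.002 for WRKY58, -1.45 to 1.37 for scpl16, -1.68 to 1.47 for CRK23 and -1.48 to 1.599 for SEN1, so changes of 2-fold are within them. They were narrower for RLK1 (-0.54 to 0.47) and HSFA2 (-0.77 to 0.44). These 6 were the ones with the largest difference among genes whose contrast changed by under 0.2 between treatments.

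Opposite calls were rare: 134 genes were called after both treatments in opposite directions, 71 of them higher in pad4 after 2'cADPR and lower after water. KCS2, an elongase of very long chain fatty acids, was at 15.3, 14.8 and 11.8 CPM in pad4 and 1.98, 2.14 and 2.71 CPM in wild type after 2'cADPR (log2 difference 2.62 ± 0.20 SE, adjusted p = 9.64e-09) and at 17.8, 11.9 and 10.2 CPM in pad4 and 19.6, 18.1 and 18.9 CPM in wild type after water (log2 difference -0.51 ± 0.17 SE, adjusted p = 0.0392). RLK902, a receptor-like kinase, was at 22.96, 22.97 and 27.5 CPM in pad4 and 4.11, 4.53 and 4.24 CPM in wild type after 2'cADPR and at 23.5, 25.2 and 23.8 CPM in pad4 and 28.99, 31.5 and 31.2 CPM in wild type after water, with differences of 2.51 and -0.34. CYP96A4, a cytochrome P450 gene, ZW9, a TRAF-like gene, and GRP23, a glycine-rich protein gene, were likewise higher after 2'cADPR, by 2.53, 2.21 and 1.67, and lower after water, by -0.42, -0.63 and -0.31. MLO12, of the family whose members support powdery mildew infection, ran the other way, with 9.86, 13.35 and 11.01 CPM in pad4 and 43.2, 49.9 and 41.3 CPM in wild type after 2'cADPR (log2 difference -1.97 ± 0.14 SE, adjusted p = 6.12e-09) and 0.52 on the log2 scale after water. These 6 had the largest differences after 2'cADPR among the opposite-called genes with a symbol and at least 5 CPM in the higher group. That their differences after water were smaller follows largely from this choice.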

How the data were processed

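Rosette leaf RNA was sequenced as mRNA libraries from 4 groups of 3 (pad4 and wild type, each given 2'cADPR or water). The authors deposited raw counts per gene, made with fastp, HISAT and HTSeq on TAIR10 per the submitters' processing notes; the sources used here do not give versions, settings or strand option, so reads of overlapping antisense genes cannot be told apart. The deposited FPKM values, which divide counts by exon length and library total, served only to check gene lengths (19449 of 19452 within 1% of RefSeq). All 24228 gene IDs matched RefSeq, which gave symbols and starts.

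Counts were tested with edgeR 4.0.16 (R 4.3.3; TMM factors, filterByExpr with a minimum count of 10, 1 mean per group, quasi-likelihood test, adjusted p under 0.05), after a check on simulated data. CPM values are scaled to the TMM-adjusted totals. Libraries held 35816755 to 44436989 counts, 99.98% of them in tested genes, and the median standard error of a log2 difference was 0.12. The intervals of the WRKY62 and TPS03 ratios, and the floors, cover counting error only. Floors are 3 counts over a group. The 95% intervals of the change between treatments were built from the SE of the edgeR fit, which includes the spread between libraries. Gene lists (37, with 710 genes, 703 in the table and 683 tested) and the groups were chosen with earlier results of these data known. NIC3, SAG12, SAG29, SHN1, CRU3, COBL9 and RHD6 were not analysed here, and 1 named gene and some promoter stretches are not reported here. Named genes were PAD4, the 12 largest falls and 12 largest rises (called, with a symbol, groups not overlapping, 5 CPM or more in one of them), up to 2 called members per list in its main direction and 1 in the other, and 6 genes each of opposite and of like calls after water. Replicate numbers did not pair samples: same-numbered deviations correlated between -0.17 and 0.09. Alternatives were DESeq2 1.42.0, limma-voom 3.58.1, other scalings and filters, only the 6 libraries, a replicate block and leaving out each library.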

Additional observations from a re-analysis of the deposited data

Results flagged for a closer look

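Each result here was picked out because the genotype difference after 2'cADPR and that after water differed by a direct test, the contrast of the 2 contrasts in edgeR (adjusted p under 0.05). Of the 124 genes named in the report, 105 met this, but most were chosen for their difference after 2'cADPR, which is 1 term of this contrast, so the share shows nothing about them. Values are the change of the log2 difference between pad4 and wild type, after 2'cADPR minus after water. A negative value means that pad4 stood lower relative to wild type with 2'cADPR than with water. For genes without a count in a group the fitted value depends on a small count added by the model, so it is no measure of size: these were FMO1 (-12.13), ALD1 (-9.59), CHX17 (-8.97), CML43 (-8.55) and CSLA01 (9.26). WRKY62 (-5.27) and TPS03 (7.67) rest on 3 counts and 1 count in 1 of the groups.

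Among immune signalling genes the change was negative for PAD4 (-3.18), UGT76B1 (-4.61), AIG1 (-4.37), NUDT6 (-4.12), AT1G66090 (-2.29), AT1G72900 (-2.07), AT1G50180 (-1.04), RPS2 (-0.55), SARD1 (-2.85), PBS3 (-4.02), NIMIN1 (-3.10), BAP2 (-6.07), MPK11 (-1.79), FRK1 (-4.13), CRK39 (-5.22), CNGC19 (-4.39), ACA13 (-4.60), PARG2 (-3.04), AO (-1.69), PAD3 (-2.27) and CYP71A12 (-3.16). It was positive for SUMM2 (0.92), ICS2 (1.12), NIMIN3 (0.90), DORN1 (0.83), WRKY23 (1.05), CRK41 (0.57), ANN4 (2.79) and NADK1 (0.63). NIMIN3 was lower in pad4 after water and just past the threshold in the other direction after 2'cADPR.

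Glucosinolate and growth genes had large positive changes: MYB34 (4.38), CYP79F1 (4.88), BAT5 (4.16), GASA6 (6.56), MYB47 (6.76), IAA29 (7.12), SOFL2 (6.26), HMT3 (6.79), XTH31 (6.32), MBP1 (4.52), BZIP34 (5.90), AMT1;2 (6.18), HAT1 (5.29), EXPA8 (3.82), GA20OX1 (2.37), CHS (3.302) and PAL2 (0.60). The exceptions in those families were GH3.6 (-1.98), XTH10 (-6.22), GID1B (-2.81) and PAL1 (-0.69). Photosynthesis genes changed by 1.43 (PSAN), 1.26 (LHCB5), 2.57 (FBA1), 2.17 (RBCS2B), 1.88 (CHLM) and 1.72 (CHLI2), with LHCB1.4 (-0.65) and GSA1 (-0.26) on the other side.

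Folding, secretion and redox genes had negative changes: BIP3 (-1.85), PDIL1-2 (-1.95), PDLP5 (-3.71), SYP122 (-2.73), GRX480 (-2.68), GSTU10 (-5.15), HSP90.1 (-1.79), HSFB1 (-2.36), PAF1 (-1.06) and RPT2A (-1.23). PDLP3 (5.12) and GSTU5 (1.26) were positive. Hormone and stress genes were mixed, with VSP2 (1.47), JAZ9 (1.84), TAT3 (-2.63), ACS6 (-1.48), EIN4 (-1.25), COR15B (3.27), KIN1 (2.83), SAG21 (-3.97), NAP (-4.38) and CLH1 (2.41).

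Clock, marker and normalisation genes were PRR3 (0.66), RVE4 (0.51), TOC1 (-0.23), CDKA1 (-0.31), CER1 (2.71), CER2 (2.07), GORK (1.14), MYB60 (0.84), HB-8 (1.11), SEOR1 (1.05), UBQ10 (-0.83) and GAPC1 (-0.48). The genes with opposite calls after the 2 treatments were chosen for it, and their changes were 3.12 (KCS2), 2.95 (CYP96A4), 2.85 (RLK902), 2.84 (ZW9), -2.49 (MLO12) and 1.97 (GRP23).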

How the results depend on the processing

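The count of called genes was 13950 to 14378 when 1 of the 6 treated libraries was left out in turn and 12085 to 14791 under the other alternatives, against 14577 in the reported test, and no call changed sign except 175 under upper-quartile scaling, none of them a member of a list. Genes at least 2-fold lower and higher ranged from 3606 to 3693 and from 4049 to 4258 without 1 library. After water, higher calls were 3547 under upper-quartile scaling in place of 2299, and with 1 library left out water calls ranged from 4675 to 5007. PAD4 stayed between -7.64 and -7.11. With the replicate number as a block 14464 genes were called, and NIMIN3 was the one named gene to lose its call there; 2 of 12 libraries correlated best with a library of their own number. The median of 27 of 37 lists moved by more than the library spread under upper-quartile scaling, which shifted all genes by 0.22. List medians after water were recomputed after the data were seen: 4 of 37 moved by more than the library spread under that scaling, and 3, 1 and 1 without wild type water library 1, 2 or 3. The cell division median was -0.83 when genes under 5 CPM were dropped, with 2 genes left, and that of salicylic acid synthesis was -5.62; that filter removed 3 named genes and 1 list. DESeq2 gave no adjusted p for PR1 and NIMIN1. For the changes not traced to fewer genes or to scaling, the cause was not tested.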

Other observations

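Genes lower in pad4 were found beside each other on the chromosomes in places, a pattern looked for after the values were known. Counting runs of at least 5 neighbouring tested genes that were each at least 2-fold lower, 27 runs were present, and how many chance would give was not tested. The longest was 11 genes on chromosome 4 (TAIR10, 12117491 to 12160279), with a median log2 difference of -2.995. Of these, 10 carry symbols of cysteine-rich receptor-like kinases, from CRK5 to CRK15, and the other carries the symbol EP1. On chromosome 1 (4620101 to 4638330) 6 genes from AT1G13470 to AT1G13550 had a median of -8.445. Another 6 on chromosome 5 (7478860 to 7496990) ended with WRKY38, a transcription factor gene of group III, with a median of -7.505. NUDT5 and NUDT6, both nudix hydrolases, belonged to a run of 5 on chromosome 2 (1538472 to 1574508) with a median of -7.01. PAD4 itself stood at the start of a run of 5 on chromosome 3 (19431095 to 19453212) that included PUB22, a ubiquitin ligase gene. This run, counted in the 27, reaches 5 genes only with PAD4, which was the gene knocked out. Close relatives in these runs may share reads, so their values are not independent.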
